A study of Mus musculus with 15 samples.

Results

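The injury contrast of dermal interstitial macrophages was taken from 6 of the 15 libraries of a mouse ear skin series: 3 libraries of interstitial macrophages from the punched ear, called injIM, and 3 from the unpunched ear, called IM. The libraries were chosen by their titles, and every gene of the deposited table entered. All groups came from CX3CR1-creERT2/gfp R26-tdT/+ mice, in which the fractalkine receptor locus carries GFP and a Cre recombinase that tamoxifen switches on, with tdTomato at Rosa26 awaiting Cre, and all received tamoxifen. The left ear was punched 3 weeks after tamoxifen, and both ears were taken 10 days after the punch, so IM and injIM share genotype, tamoxifen and mice and differ by the punch and by the side of the body. Macrophages were sorted as CD11b+ CD64+ Lin- cells, and the interstitial gate was GFP-/Tomato-. The gate holds cells that did not express the reporter locus at the time of the sort and had not recombined, so it carries no mark of when a cell entered the skin. The reporter entry of the injIM labels reads GFP+/Tomato+, against the titles and the sorting protocol, and the genotype entry names Cxcr1. The series drew its samples from 3 mice, and the labels do not tie a library to a mouse. The p-values below measure spread between libraries. In the main fit that spread was estimated over all 15 libraries, with a weight for each group. The remaining groups, with 3 libraries each, came from nerve-associated gates: resident cells of the unpunched (sNAM) and punched ear (injsNAM), and cells that joined after the punch (recsNAM).

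Interstitial macrophages lie between the collagen fibres and vessels of the dermis, where they take up debris and serum proteins and release chemokines that draw leukocytes from the blood. After a skin wound, macrophages pass through an early phase in which they secrete inflammatory cytokines and a later phase in which they remodel matrix, clear dead cells and release growth factors. In bulk libraries a change in the kinds of cells sorted and a change of RNA within each cell cannot be told apart.

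Levels are given as normalized counts, in which the authors scaled each library's reads by a single factor. Recovered depth was 20.6 to 23.8 M reads (M, 10 to the power of 6) in IM and 20.4 to 21.9 M in injIM, and the correlation of log2 values between replicates was 0.972 to 0.982 in IM and 0.966 to 0.983 in injIM. More genes had a read in injIM (16057 to 16416) than in IM (15202 to 15554), with no overlap (exact permutation test, two-sided p = 0.1, the smallest that 3 against 3 allows). Pan-macrophage markers summed to 24618 to 26431 CPM (reads scaled to a library total of 1 M) in IM and 22433 to 25158 in injIM, with overlapping ranges. Aif1, a member of this list, had no read in any library of either group, so a gene without a read may not have been counted. Cx3cr1, the reporter locus, was near 0 throughout (3.38, 10.2 and 0 in IM and 0.821, 7.28 and 23.5 in injIM). The locus also holds the GFP and Cre insertions, so these values check the gate only weakly.

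The comparison of injIM with IM asked which genes differed between interstitial macrophages of the punched and the unpunched ear. The matrix protease Mmp9, the caveolar coat protein Cav1, the secreted phosphoprotein Spp1 and the lysosomal phosphatase Acp5 were among the largest rises, together with the guidance ligand Sema4d, the proteoglycan Sdc1 and the activin subunit Inhba. The B cell chemoattractant Cxcl13, the cytokine Il1a, the monocyte chemoattractants Ccl2 and Ccl7, the growth factor Areg and the tetraspanin Cd81 were among the largest falls. Of 8656 genes tested, 359 were higher (4.15%) and 349 lower (4.03%) in limma at an adjusted p under 0.05 (Benjamini-Hochberg), while 1732 passed 0.05 before adjustment. Over all tested genes the log2 difference had a median of 0.03. These shares and this median are the background for the counts of every gene list below, except the groups under other observations at the end. Most calls were of moderate size: 123 of the risen and 91 of the fallen genes differed by more than 1 on the log2 scale, and 19 and 4 by more than 2. The 3 injIM libraries lay above all 3 IM libraries in 349 of the 359 risen genes and below them in 337 of the 349 fallen genes, against 13.5% and 11.4% of all tested genes. The calls rest on the same values, so this separation gives them no support of its own. The largest rises and falls were also picked among genes whose groups did not overlap. The number of calls differed with how the spread was estimated. With 1 spread for all 15 libraries and no group weights, limma called 10 genes higher and 8 lower and edgeR 2 and 2. Fits that used only the 6 interstitial libraries called 269 and 252 with limma, 238 and 250 with edgeR and 422 and 434 with DESeq2, and 218 of the 359 risen and 227 of the 349 fallen genes passed in limma and edgeR on those 6.

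**Figure D1:**
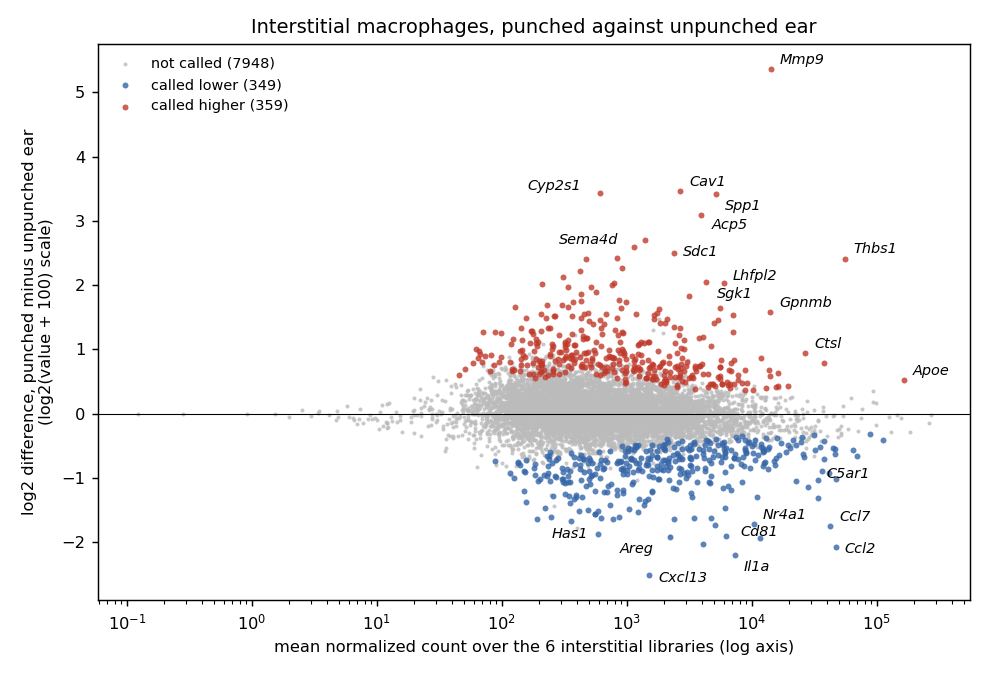
Log2 difference of punched against unpunched ear (vertical axis, on the log2(value + 100) scale) against the mean normalized count over the 6 interstitial libraries (horizontal log axis) for the 8656 tested genes. The 359 risen genes are red, the 349 fallen genes blue and the rest grey, and Mmp9 stands highest at 5.36.

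The libraries of each group were not alike in the genes that moved. IM replicate 2 was the highest of the 3 IM libraries in 194 of the 359 risen genes, and in 3513 of all 8656. It was the lowest IM library in 148 of the 349 fallen genes. On the punched side, injIM replicate 3 was the highest library in 171 of the risen and the lowest in 196 of the fallen genes. Without IM replicate 2 the counts were 457 higher and 370 lower, and without injIM replicate 3 they were 400 and 340. Leaving out IM replicate 3 gave 197 and 202, IM replicate 1 210 and 215, injIM replicate 1 202 and 226, and injIM replicate 2 221 and 253. In all, 148 risen and 146 fallen genes passed whichever of the 6 libraries was left out.

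Secreted cytokines and chemokines, the signals by which macrophages recruit and instruct other cells, were in part lower in the punched ear. Of 24 tested members of this list of 31, 13 fell and none rose, 15 had an unadjusted p under 0.05, and their median log2 difference was -0.81. Cxcl13, which draws B cells, measured 2964, 2108 and 2674 in IM and 904, 233 and 207 in injIM (chromosome 5, 95956939 to 95961068, GRCm38). Every injIM library was below every IM library, and the means differed 5.76-fold (log2 difference -2.50, SE 0.38, adjusted p = 0.000299). Cxcl13 did not pass in edgeR on the 6 interstitial libraries (adjusted p = 0.0904). Il1a, an alarm cytokine held in the cell and released on damage, measured 11665, 16821 and 8000.0 in IM and 2766, 2581 and 2088 in injIM (chromosome 2, 129299609 to 129310186). The lowest IM library was well above the highest injIM library (log2 difference -2.19, SE 0.20, adjusted p = 1.26e-06). Ccl2, the main attractant of monocytes that carry CCR2, measured 85744, 66142 and 76319 in IM and 21596, 16647 and 15758 in injIM (chromosome 11, 82035577 to 82037452). Its mean was 4.23-fold lower in injIM, without overlap (log2 difference -2.08, SE 0.17, adjusted p = 4.65e-07). Its neighbour Ccl7, on the same chromosome (chromosome 11, 82045712 to 82047525), measured 80551, 55795 and 60702 in IM and 20079, 19054 and 18733 in injIM, without overlap (log2 difference -1.74, SE 0.17, adjusted p = 1.95e-06).

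The other fallen members were Il1b (log2 difference -1.31, adjusted p = 2.72e-05), Il6 (log2 difference -1.21, adjusted p = 0.00128), the anti-inflammatory cytokine Il10 (log2 difference -1.08, adjusted p = 0.000895), Ccl3 (log2 difference -1.06, adjusted p = 0.000617), Ccl4 (log2 difference -0.90, adjusted p = 0.0188), Ccl12 (log2 difference -0.86, adjusted p = 0.0108), Osm (log2 difference -0.76, adjusted p = 0.0309) and the neutrophil attractants Cxcl1 (log2 difference -1.05, adjusted p = 4.22e-06) and Cxcl2 (log2 difference -0.88, adjusted p = 0.000289). The decrease was not general to the list. Il1rn, which encodes the antagonist of the interleukin-1 receptor, measured 46211 ± 5882 in IM and 45804 ± 7154 in injIM (adjusted p = 0.972), beside falls of both interleukin-1 genes. Ccl8 measured 33541 ± 8309 in IM and 27409 ± 6006 in injIM, Ccl9 10627 ± 1537 in IM and 8893 ± 684 in injIM, and the prostaglandin synthase Ptgs2 3604 ± 2513 in IM and 4434 ± 1109.9 in injIM (adjusted p = 0.554, 0.423 and 0.449). Ccl6 measured 2126 ± 686 in IM and 3099.6 ± 199 in injIM (adjusted p = 0.09). Leaving out 1 library at a time left 11 to 13 members lower, and without IM replicate 2 limma called 2 higher.

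The promoters of 3 of the genes with the largest differences are shown because they are the sequence context of the strongest rise and falls for which the reference table has an entry. They are the 250 bases before the start of the gene, from RefSeq on GRCm38.p6, 5′ to 3′ on the gene's strand, and capitals mark the AP-1 motif TGANTCA. They lie at chr6:17306085-17306334 (plus strand) for Cav1, chr5:95956689-95956938 (plus strand) for Cxcl13 and chr2:129309973-129310222 (minus strand) for Il1a, whose transcript used there starts inside the gene span given above.
Cav1: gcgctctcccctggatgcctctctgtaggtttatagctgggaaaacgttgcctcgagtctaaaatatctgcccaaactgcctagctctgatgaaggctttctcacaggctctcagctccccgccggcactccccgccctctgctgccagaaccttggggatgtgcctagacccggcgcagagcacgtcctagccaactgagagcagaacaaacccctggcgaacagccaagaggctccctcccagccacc
Cxcl13: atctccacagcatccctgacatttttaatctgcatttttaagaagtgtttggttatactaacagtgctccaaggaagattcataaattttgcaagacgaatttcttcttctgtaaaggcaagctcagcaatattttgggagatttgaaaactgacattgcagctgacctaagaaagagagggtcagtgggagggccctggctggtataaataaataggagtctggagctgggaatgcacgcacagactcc
Il1a: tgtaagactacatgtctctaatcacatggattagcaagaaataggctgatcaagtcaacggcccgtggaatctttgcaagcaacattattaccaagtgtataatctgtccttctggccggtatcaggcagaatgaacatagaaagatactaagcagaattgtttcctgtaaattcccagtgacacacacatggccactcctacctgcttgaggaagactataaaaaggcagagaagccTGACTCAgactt
The motifs searched on both strands of these windows were TGANTCA for AP-1, the E-box CACGTG, and the NF-kappaB site and the CArG box by their usual consensus. The AP-1 motif was found in the Il1a promoter, 6 to 12 bases before the start, and none of the motifs in the Cav1 or Cxcl13 windows. Of the 276 risen genes with a promoter entry 6.16% held the AP-1 motif, of the 276 fallen 8.7%, of the 7000 tested genes with an entry 4.39% and of all 27025 RefSeq promoters 6.87%. The NF-kappaB site stood in 10.1% of the risen, 7.97% of the fallen and 8.59% of the tested genes. The E-box was in 8.7%, 5.8% and 9.26%, and the CArG box in 1.45%, 2.17% and 1.23%. These are matches of letters, with no measure of binding.

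**Figure D2:**
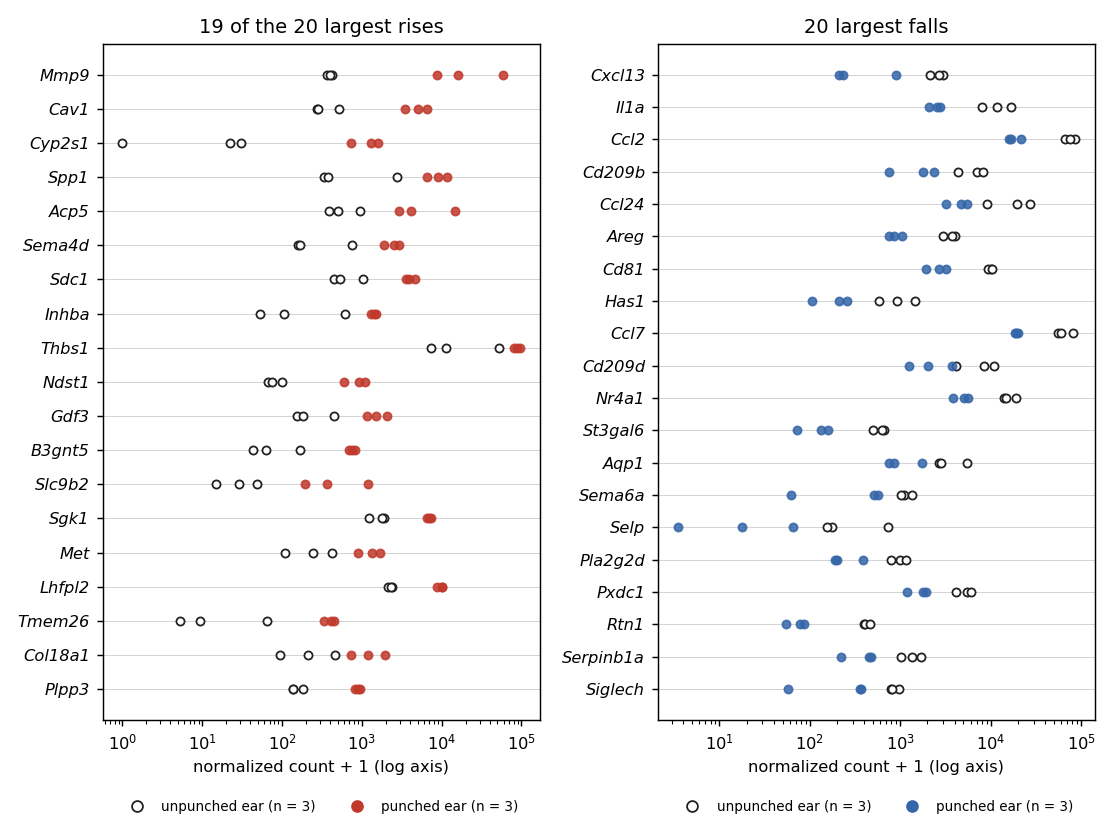
Normalized count plus 1 on a log axis for 19 of the 20 largest rises (left) and the 20 largest falls (right) among genes called by limma whose groups did not overlap. Each point is 1 library, open for the unpunched and filled for the punched ear (n = 3 each). Mmp9 spans 8654 to 59304 among the punched libraries, and IM replicate 2 is the right-hand open point of Spp1, Inhba and Thbs1.

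Genes that carry inflammatory signals to the nucleus fell in part. Of 24 tested immediate-early factors and MAP kinase phosphatases, which switch on within minutes of a stimulus, 9 fell and none rose (median -0.34). Nr4a1, an orphan nuclear receptor, measured 14074, 19102 and 14746 in IM and 5053, 5550.5 and 3819 in injIM (log2 difference -1.72, SE 0.17, adjusted p = 3.71e-06). Zfp36, which binds and destabilizes cytokine messages, measured 66700.3, 71252 and 52674 in IM and 31368, 27823 and 34789 in injIM (log2 difference -1.01, SE 0.13, adjusted p = 6.65e-05). The groups were apart for both genes. Dusp1, a phosphatase of p38 and JNK, fell from 54506 ± 10903 to 28655 ± 4625 (log2 difference -0.92, adjusted p = 0.00165). The others were Nr4a3 (log2 difference -1.13, adjusted p = 0.00319), Atf3 (log2 difference -0.85, adjusted p = 0.00201), Btg2 (log2 difference -0.79, adjusted p = 0.00349), Myc (log2 difference -0.78, adjusted p = 0.0293), Junb (log2 difference -0.63, adjusted p = 0.00167) and Ier2 (log2 difference -0.39, adjusted p = 0.0464). The AP-1 members Fos and Jun did not pass. Fos measured 30273 ± 8922 in IM and 24181 ± 5359.6 in injIM (adjusted p = 0.434) and Jun 8052 ± 1160.5 in IM and 8792 ± 1060.1 in injIM (adjusted p = 0.668). Egr1 measured 2911 ± 263 in IM and 3496 ± 425 in injIM (adjusted p = 0.515). These genes also respond to tissue dissociation before a sort, and a part of dissociation in these differences was not tested.

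In the NF-kappaB and TNF response list, 6 of 29 tested genes fell and 1 rose (median -0.28). These were 20.7% lower and 3.45% higher, against 4.03% and 4.15% of all tested genes. Nfkb1, the precursor of the p50 subunit, measured 7395, 7624 and 7466 in IM and 4976, 4112 and 4962 in injIM (log2 difference -0.67, SE 0.14, adjusted p = 0.00506). Tnip3, an inhibitor of the pathway, fell from 4101 ± 587 to 2071 ± 361 (log2 difference -0.96, adjusted p = 0.000194). Bcl3, Ier3, the adhesion ligand Icam1 and the survival gene Bcl2a1b fell as well (log2 differences -0.49, -0.57, -0.66 and -0.70, adjusted p = 0.0278, 0.0112, 0.0259 and 0.00651). Bcl2a1b has near-identical copies among which reads may be split. Traf1, an adaptor of TNF receptors, rose (log2 difference 0.67, adjusted p = 0.00961). The feedback genes Nfkbia (28309 ± 830.4 in IM and 23559 ± 3784 in injIM, adjusted p = 0.188) and Tnfaip3 (16225 ± 1863 in IM and 12269 ± 2111 in injIM, adjusted p = 0.0685) did not pass. Bcl2a1b, Icam1 and Traf1 did not pass in limma on the 6 interstitial libraries alone (adjusted p = 0.0633, 0.0838 and 0.0766). Icam1 did not pass without IM replicate 3 or injIM replicate 1 or 3 (adjusted p from 0.0727 to 0.192), and Traf1 not without IM replicate 1 or 3 or injIM replicate 1 (adjusted p from 0.051 to 0.0749). On the 6 interstitial libraries alone, limma called 2 members lower, Nfkb1 and Tnip3, and none higher, so Bcl3 and Ier3 did not pass there either. Without IM replicate 1 or injIM replicate 1, 4 were lower.

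Some activation and costimulation genes of macrophages and dendritic cells, which present antigen to T cells, fell. Of 10 tested antigen presentation and costimulation genes of a list of 22, 4 fell and none rose (median -0.10), and 2 fell without IM replicate 3, injIM replicate 1 or injIM replicate 2. Cd83, a marker of activated antigen-presenting cells, measured 38211, 34014 and 43722 in IM and 19299, 16919 and 16001 in injIM (log2 difference -1.14, SE 0.11, adjusted p = 2.06e-06). Cd86, a ligand of CD28, measured 9044, 8677 and 10995 in IM and 6085, 5774 and 5663 in injIM (log2 difference -0.70, SE 0.11, adjusted p = 0.000325). The groups did not overlap for either gene. Cd80 (log2 difference -0.75, adjusted p = 0.0234) and Icosl (log2 difference -0.85, adjusted p = 0.0323) fell as well. Cd80 did not pass without IM replicate 2 or 3 or injIM replicate 1 or 2 (adjusted p from 0.0605 to 0.127), and Icosl not without IM replicate 1 or 3 or injIM replicate 1, 2 or 3 (adjusted p from 0.05 to 0.187). Icosl did not pass with a pseudocount of 10 (adjusted p = 0.0648) or in voom (adjusted p = 0.0641). Cd40 measured 845 ± 219 in IM and 648 ± 39 in injIM (adjusted p = 0.35), and the class II invariant chain Cd74 92546 ± 15923 in IM and 105724 ± 29305 in injIM (adjusted p = 0.69). The inhibitory ligand Cd274 measured 2005 ± 48.8 in IM and 3000.5 ± 510.5 in injIM (adjusted p = 0.0555). The sums of dendritic cell and Langerhans cell markers were lower beside these genes, as given with the marker lists below. Those sums came mostly from Cd209a and Mfge8, and most tested markers of both lists were not called. The part of these cells in the result was not tested.

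Growth factors used in tissue repair moved in both directions. Of 21 tested members of the list, 3 rose and 6 fell (median -0.25). Inhba, which encodes the subunit of activin A, measured 106, 617 and 51.9 in IM and 1411, 1314 and 1520.0 in injIM (chromosome 13, 16004256 to 16031609), and the groups were apart (log2 difference 2.42, SE 0.42, adjusted p = 0.000862). Inhba did not pass in edgeR on the 6 interstitial libraries (adjusted p = 0.258) or in DESeq2 on the 6 interstitial libraries (adjusted p = 0.0989). Gdf3, another TGF-beta family ligand, measured 155, 448 and 182 in IM and 1175, 1483 and 2093 in injIM (log2 difference 2.27, SE 0.29, adjusted p = 5.04e-05). For both Inhba and Gdf3 IM replicate 2 was the highest unpunched library. Vegfa, the angiogenic factor, measured 5490.4, 7807 and 2805 in IM and 7445, 8989 and 10527 in injIM (log2 difference 0.83, adjusted p = 0.0278), and IM replicate 2 lay above injIM replicate 1. Vegfa did not pass in limma on the 6 interstitial libraries alone (adjusted p = 0.134). Vegfa did not pass without IM replicate 1 or 3 or injIM replicate 1, 2 or 3 (adjusted p from 0.051 to 0.135).

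Areg, a ligand of the EGF receptor, measured 4039, 3762 and 3001 in IM and 847, 753 and 1043 in injIM (chromosome 5, 91139599 to 91148432), a 4.09-fold difference of means without overlap (log2 difference -1.92, SE 0.27, adjusted p = 0.000166). The platelet-derived growth factors fell, Pdgfb from 1195 ± 145 to 470.4 ± 98 (log2 difference -1.19, adjusted p = 0.00038) and Pdgfa from 3815 ± 539 to 1952 ± 186 (log2 difference -0.93, adjusted p = 0.000524). Gdf15, a stress-induced cytokine, fell from 9557 ± 2607 to 4063 ± 768 (log2 difference -1.19, adjusted p = 0.000793), and the remaining fallen members were Il10 and Osm, given above. Igf1 measured 8235 ± 601 in IM and 7299 ± 747 in injIM (adjusted p = 0.517), Tgfb1 6639 ± 1446 in IM and 5479 ± 156 in injIM (adjusted p = 0.316) and Hbegf 4325 ± 188 in IM and 2734 ± 346 in injIM (adjusted p = 0.115).

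Matrix remodelling genes included the largest rise of the comparison. Mmp9, a gelatinase that cleaves basement membrane collagen, measured 363, 423 and 402 in IM and 8654, 16010.4 and 59304 in injIM (chromosome 2, 164940326 to 164955850). All 3 punched libraries were far above the highest unpunched library, and they differed widely among themselves, with replicate 3 highest (log2 difference 5.36, SE 0.53, adjusted p = 1.02e-05). Mmp9 is also a granule gene of neutrophils. The other 11 neutrophil markers summed to 119.7, 106.4 and 78.27 CPM in IM and 103.9, 129.8 and 101.3 CPM in injIM. Most of that sum was Csf3r, with 88.3, 81.2 and 67.8 CPM in IM and 92.4, 108 and 76.7 in injIM. S100a8, at 1.15, 0.883 and 0.436 CPM in IM and 3.52, 4.26 and 3.1 in injIM, was higher in every punched library, and Mmp8 measured 1.2, 2.23 and 0 CPM in IM and 2.02, 4.95 and 3.37 in injIM. Neither passed the filter on low values. Ly6g and Ltf had no read in any of the 6 libraries, and S100a9 stayed at or below 0.627 CPM. The macrophage marker Aif1 had no read either, so these zeros may mean genes that were not counted. The part of neutrophils in the rise of Mmp9 was not tested.

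Of 28 tested matrix remodelling genes, 6 rose and 4 fell (median 0.17). Mmp14, a membrane-anchored collagenase, measured 1964, 4603 and 1867 in IM and 6713, 8658 and 9826 in injIM, and the groups did not overlap (log2 difference 1.65, SE 0.23, adjusted p = 0.000101). Mmp12, the macrophage elastase, rose from 92.2 ± 70.2 to 437 ± 93 (log2 difference 1.53, adjusted p = 0.00528). Tgm2, a transglutaminase that crosslinks matrix proteins, measured 3050.5, 5017 and 2806 in IM and 8951, 10795 and 11564 in injIM (log2 difference 1.54, SE 0.17, adjusted p = 9.2e-06). Among the syndecans, transmembrane heparan sulfate proteoglycans, Sdc1 and Sdc4 moved in opposite directions. Sdc1 measured 447, 1039.7 and 527 in IM and 3604, 3943 and 4697 in injIM (log2 difference 2.51, SE 0.23, adjusted p = 1.35e-06), and Sdc4 measured 17654, 18979.6 and 21614 in IM and 11937, 10103 and 11460.3 in injIM (log2 difference -0.79, SE 0.12, adjusted p = 0.000299). Thbs1, thrombospondin 1, measured 11320.3, 51575 and 7392 in IM and 87424, 94972 and 79641 in injIM (log2 difference 2.41, SE 0.50, adjusted p = 0.00814), with IM replicate 2 far above its fellow libraries. Thbs1 did not pass in limma on the 6 interstitial libraries alone (adjusted p = 0.133). Thbs1 did not pass without injIM replicate 1 or 2 (adjusted p from 0.0673 to 0.0694).

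The inhibitor Timp2 (log2 difference -0.42, adjusted p = 0.0201), the urokinase receptor Plaur (log2 difference -0.60, adjusted p = 0.00193) and the transglutaminase subunit F13a1 (log2 difference -0.71, adjusted p = 0.0155) fell. Timp2 and F13a1 did not pass in limma on the 6 interstitial libraries alone (adjusted p = 0.0918 and 0.0951). Timp2 did not pass without IM replicate 1 or 3 or injIM replicate 1 (adjusted p from 0.0555 to 0.12), and F13a1 not without IM replicate 3 (adjusted p = 0.0947). Fibronectin Fn1 measured 1063 ± 1010.2 in IM and 2576 ± 1149.9 in injIM (adjusted p = 0.134) and the protease Mmp19 37734 ± 5118 in IM and 24798 ± 8371 in injIM (adjusted p = 0.0686). Outside this list, Ndst1, which sulfates heparan chains, rose from 79.7 ± 18.1 to 874 ± 251 (log2 difference 2.41, adjusted p = 3.61e-06), and Col18a1, a basement membrane collagen, rose from 256 ± 188 to 1283 ± 604 (log2 difference 2.00, adjusted p = 0.00115). Col18a1 did not pass in edgeR on the 6 interstitial libraries (adjusted p = 0.0843). Has1, a hyaluronan synthase, fell from 995 ± 445 to 191 ± 78.2 (log2 difference -1.87, SE 0.28, adjusted p = 0.00024). B3gnt5, which starts the lacto-series of glycolipids, rose from 90.2 ± 66.3 to 752 ± 62.3 (log2 difference 2.22, adjusted p = 3.13e-06), while the sialyltransferase St3gal6 fell from 593 ± 86.7 to 120.3 ± 43.6 (log2 difference -1.67, adjusted p = 1.29e-05).

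The identity genes of perivascular and interstitial macrophages, the scavenger receptors and lectins that mark resident dermal cells, were mostly lower. Of 24 tested members, 16 fell and 1 rose (median -0.74). Cd209b, a lectin of the DC-SIGN family, measured 7009, 4389.8 and 8242 in IM and 2337, 1782 and 758 in injIM (log2 difference -2.03, SE 0.36, adjusted p = 0.0012), without overlap. Ccl24, an eosinophil chemoattractant made by these cells, measured 9118, 19712 and 27249 in IM and 4684, 5512 and 3224 in injIM (log2 difference -1.94, SE 0.37, adjusted p = 0.00338). Mrc1, the mannose receptor, measured 34979, 37372 and 42855 in IM and 30983, 28234 and 19587 in injIM (log2 difference -0.57, SE 0.14, adjusted p = 0.0153), and its highest injIM library was below its lowest IM library. For these 3 genes injIM replicate 3 was the lowest library.

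Cd209a, Cd209d, Cd209f and Cd209g also fell (log2 differences -1.62, -1.72, -1.42 and -1.12, adjusted p = 0.00864, 0.00144, 0.00323 and 0.0101). These genes are close paralogs among which the counting may have split reads, and Cd209a is also a dendritic cell marker. Lyve1, the hyaluronan receptor of perivascular macrophages, fell from 1114 ± 596 to 364 ± 244 (log2 difference -1.42, adjusted p = 0.0395), the folate receptor Folr2 from 2475 ± 374 to 1319.8 ± 172 (log2 difference -0.86, adjusted p = 0.0175) and the haemoglobin scavenger Cd163 from 15461 ± 2562 to 9054 ± 3132 (log2 difference -0.82, adjusted p = 0.0146). Cbr2, Gas6, Fcna, Selenop and Timd4 fell with log2 differences of -0.76, -0.38, -0.87, -0.56 and -1.20 (adjusted p = 0.00476, 0.0281, 0.0106, 0.00898 and 0.0118). Stab1 (12971 ± 3078 in IM and 9175 ± 2616 in injIM, adjusted p = 0.118), Maf (916 ± 111 in IM and 793 ± 152 in injIM, adjusted p = 0.73) and Cd36 (24397 ± 2714 in IM and 17784 ± 5378 in injIM, adjusted p = 0.153) did not pass.

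The fall of this list depended on which libraries were used. On the 6 interstitial libraries alone, limma called 8 members lower and none higher and edgeR 7 and none, and leaving out 1 library at a time left 6 to 17 lower. The 6 were without IM replicate 3, and the next fewest were 12, without IM replicate 1 or injIM replicate 1. Mrc1, Cd163, Cd209a, Cd209d and Selenop were among the members that did not pass in limma on the 6 interstitial libraries alone (adjusted p = 0.0925, 0.0688, 0.172, 0.0741 and 0.0526). Mrc1 did not pass without IM replicate 3 (adjusted p = 0.106). The same held for Cd163 without IM replicate 1 or 3 (adjusted p from 0.0567 to 0.105), Selenop without IM replicate 1 or 3 or injIM replicate 1 (adjusted p from 0.0552 to 0.0657) and Timd4 without IM replicate 3 (adjusted p = 0.103). Timd4 did not pass in voom (adjusted p = 0.073), in edgeR on the 6 interstitial libraries (adjusted p = 0.36) or in DESeq2 on the 6 interstitial libraries (adjusted p = 0.457).

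**Figure D3:**
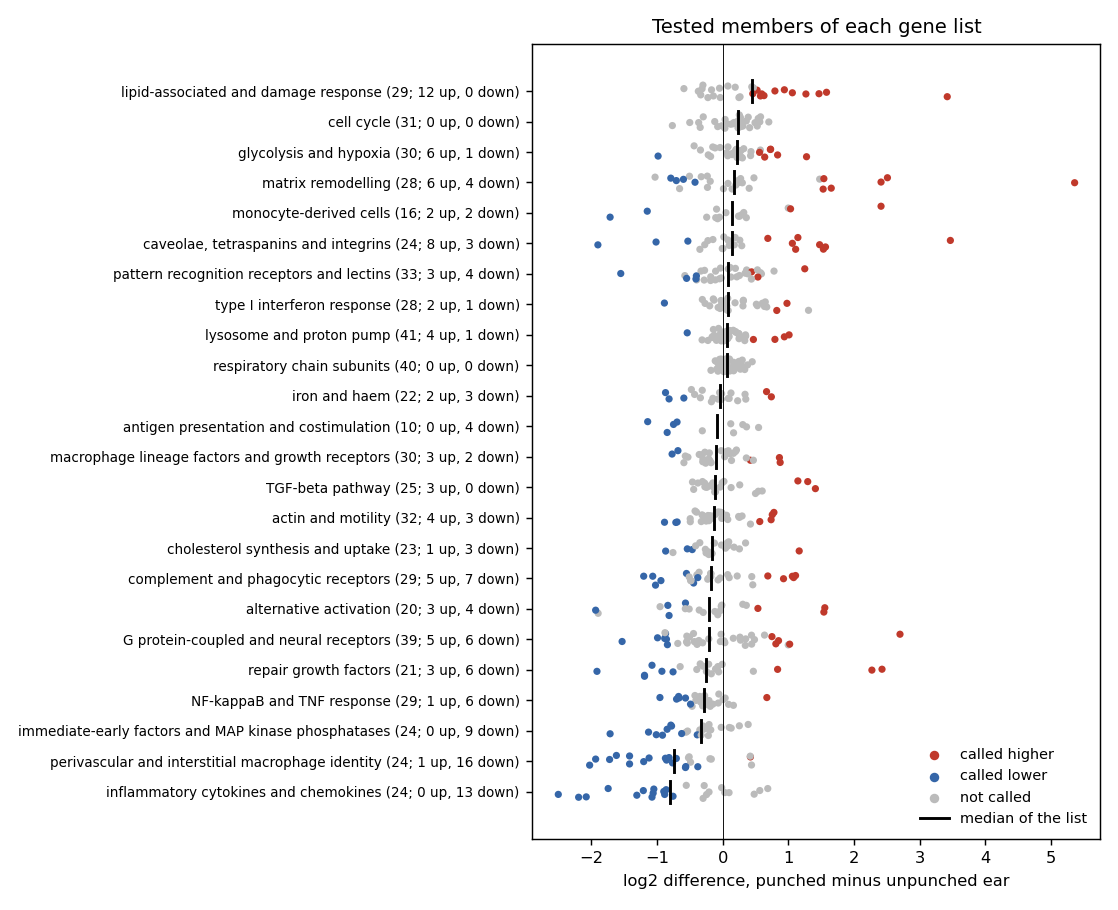
Log2 difference of punched against unpunched ear (horizontal axis) for each tested member of the 24 pathway lists, 1 point a gene, red where called higher, blue where called lower and grey where not called, with a black bar at the median of the list and the counts in the row labels. The median is lowest for inflammatory cytokines and chemokines (13 lower, median -0.81) and highest for lipid-associated and damage response genes (12 higher, median 0.44).

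Some genes of lipid uptake and cholesterol efflux, which macrophages use to deal with the remains of dead cells, rose. Of 29 tested members of the lipid-associated and damage response list, 12 rose and none fell (median 0.44). Spp1, osteopontin, measured 339.5, 2752 and 378 in IM and 6623, 9074 and 11748 in injIM (chromosome 5, 104435111 to 104441053). IM replicate 2 stood far above its fellow libraries and was still below every injIM library (log2 difference 3.42, SE 0.52, adjusted p = 0.000946). Gpnmb, a glycoprotein of lysosomes and phagosomes, measured 5096, 10423 and 5911 in IM and 19708, 27451 and 15979 in injIM (log2 difference 1.58, SE 0.22, adjusted p = 0.000145). Fabp5, a fatty acid carrier, measured 2926, 2823 and 2489 in IM and 7675, 5737 and 10526 in injIM, with IM spread narrowly and every injIM library above it (log2 difference 1.47, SE 0.19, adjusted p = 4.91e-05). Lpl, lipoprotein lipase, rose from 4137 ± 1606 to 10031 ± 3370.1 (log2 difference 1.27, SE 0.22, adjusted p = 0.00107).

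Members that handle cholesterol rose by smaller amounts: the efflux pumps Abca1 (log2 difference 0.59, adjusted p = 0.0357) and Abcg1 (log2 difference 0.63, adjusted p = 0.0292), the lysosomal lipase Lipa (log2 difference 0.46, adjusted p = 0.0264), the esterifying enzyme Soat1 (log2 difference 0.57, adjusted p = 0.012) and the carrier Apoe (log2 difference 0.52, adjusted p = 0.0207). Apoe measured 136959.6, 126033 and 141133 in IM and 176089.8, 171330.5 and 239738 in injIM, without overlap. Itgax, the CD11c integrin subunit, rose from 141 ± 115 to 371 ± 65.7 (log2 difference 1.06, adjusted p = 0.0359). Trem2, a receptor for lipids, was below the filter. Lgals3 (104085 ± 19749 in IM and 91965 ± 13693 in injIM, adjusted p = 0.551), Cd68 (57280.1 ± 3135 in IM and 45554 ± 5419 in injIM, adjusted p = 0.0761) and Plin2 (10568 ± 1682 in IM and 12924 ± 3706 in injIM, adjusted p = 0.466) did not pass. Limma on the 6 interstitial libraries alone called 6 members higher, and leaving out 1 library at a time 7 to 11, with 7 without injIM replicate 1 and 8 without IM replicate 1 or IM replicate 3. Spp1, Apoe and Itgax were among the members that did not pass in limma on the 6 interstitial libraries alone (adjusted p = 0.064, 0.0831 and 0.0504). Apoe did not pass without IM replicate 1 or 3 or injIM replicate 3 (adjusted p from 0.0538 to 0.0659), and Itgax not without IM replicate 1 or 3 or injIM replicate 1 or 2 (adjusted p from 0.142 to 0.228).

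Lysosomal genes moved only in a few members, 4 higher and 1 lower of 41 tested (median 0.07). These were 9.76% and 2.44%, against 4.15% and 4.03% of all tested genes. The cathepsins L, D and H were among them. Ctsl measured 19018, 15994 and 19836 in IM and 37443, 27469 and 41565 in injIM (log2 difference 0.94, SE 0.14, adjusted p = 0.0003), Ctsd 26791, 25691 and 30123 in IM and 44696, 42595 and 57045 in injIM (log2 difference 0.79, SE 0.11, adjusted p = 0.000173), and Ctsh 1911, 1839.8 and 1859 in IM and 3850.5, 3098 and 4837 in injIM (log2 difference 1.01, SE 0.13, adjusted p = 6.65e-05). The groups were apart for each of these proteases. The glycosidase Gusb rose (log2 difference 0.47, adjusted p = 0.0153) and the proton pump subunit Atp6v0a1 fell (log2 difference -0.54, adjusted p = 0.0406). Gusb and Atp6v0a1 did not pass in limma on the 6 interstitial libraries alone (adjusted p = 0.0849 and 0.12). Gusb did not pass without IM replicate 1 or injIM replicate 2 (adjusted p from 0.0779 to 0.11), and Atp6v0a1 not without IM replicate 1, 2 or 3 or injIM replicate 1 or 3 (adjusted p from 0.0606 to 0.137). Ctsb measured 276207 ± 34896 in IM and 249332 ± 20593 in injIM (adjusted p = 0.506) and Lamp1 54471 ± 2300.2 in IM and 52893 ± 1726 in injIM (adjusted p = 0.85), and no other pump subunit on this list was called. Acp5, tartrate-resistant acid phosphatase, was outside the list and measured 387, 501 and 938 in IM and 2921, 4079 and 14768 in injIM (log2 difference 3.09, SE 0.40, adjusted p = 0.000145). Every injIM library was above every IM library, and injIM replicate 3 was the highest. Acp5 did not pass in limma on the 6 interstitial libraries alone (adjusted p = 0.0548).

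Glycolytic genes rose in part, while those of the respiratory chain were not called. Of 30 tested glycolysis and hypoxia genes, 6 rose and 1 fell (median 0.21), and leaving out 1 library left 3 to 7 higher and none lower, with the 3 without IM replicate 3 or injIM replicate 2. Pkm, pyruvate kinase, measured 10959, 14156 and 12854 in IM and 17815, 20421 and 20852 in injIM (log2 difference 0.64, SE 0.10, adjusted p = 0.000542). Slc16a3, the lactate exporter MCT4, measured 343, 887 and 344 in IM and 1148, 1276 and 1503 in injIM (log2 difference 1.28, SE 0.23, adjusted p = 0.00113), and IM replicate 2 was its highest unpunched library. Hif1a, the oxygen-regulated transcription factor, rose from 4113 ± 412 to 6965 ± 1464 (log2 difference 0.73, adjusted p = 0.00737), Eno1 from 1342 ± 253 to 2283 ± 420.1 (log2 difference 0.72, adjusted p = 0.00503) and Pgam1 from 661 ± 34.6 to 1027 ± 150.3 (log2 difference 0.56, adjusted p = 0.0246), beside Vegfa. The glucose transporter Slc2a3 fell from 391 ± 115 to 151 ± 69.6 (log2 difference -0.98, adjusted p = 0.0336), whereas Slc2a1 measured 2297 ± 416 in IM and 3442 ± 336 in injIM (adjusted p = 0.0681). Hif1a did not pass without IM replicate 3 or injIM replicate 2 (adjusted p from 0.054 to 0.0552), and Slc2a3 not without IM replicate 1, 2 or 3 or injIM replicate 1, 2 or 3 (adjusted p from 0.0555 to 0.1). Slc2a3 did not pass with a pseudocount of 10 (adjusted p = 0.0721) or in voom (adjusted p = 0.132).

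None of 40 tested respiratory chain subunits passed in limma (median 0.06), 3 had an unadjusted p under 0.05, and edgeR and DESeq2 on the 6 interstitial libraries called none. Ndufa10 measured 875 ± 112 in IM and 1248 ± 321 in injIM (adjusted p = 0.169), Cox4i1 3833 ± 463 in IM and 4015 ± 885 in injIM and Atp5b 17419 ± 837 in IM and 17150.1 ± 3291 in injIM (adjusted p = 0.897 and 0.907). In the list of cholesterol synthesis and uptake, 1 of 23 tested genes rose and 3 fell (median -0.16). The listed member that rose was Scd2, a desaturase of fatty acids and not of sterols, from 239 ± 57.4 to 655 ± 85.8 (log2 difference 1.16, adjusted p = 0.00432). The sterol synthesis genes Cyp51 (log2 difference -0.87, adjusted p = 0.0214) and Msmo1 (log2 difference -0.46, adjusted p = 0.0475) and their regulator Srebf2 (log2 difference -0.54, adjusted p = 0.0489) fell. Msmo1 and Srebf2 did not pass in limma on the 6 interstitial libraries alone (adjusted p = 0.0958 and 0.128). Cyp51 did not pass without IM replicate 3 or injIM replicate 1, 2 or 3 (adjusted p from 0.0509 to 0.0943). The same held for Msmo1 without IM replicate 1, 2 or 3 or injIM replicate 1, 2 or 3 (adjusted p from 0.07 to 0.196) and Srebf2 without IM replicate 1, 2 or 3 or injIM replicate 1 or 3 (adjusted p from 0.0676 to 0.159).

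The list of iron and haem genes had 2 higher and 3 lower members of 22 tested (median -0.04). Spic, a transcription factor of iron-recycling macrophages, measured 3061, 2395 and 2836 in IM and 4946, 4198 and 4169 in injIM (log2 difference 0.67, SE 0.13, adjusted p = 0.00278), and the iron exporter Slc40a1 rose from 1853 ± 108 to 3183 ± 496 (log2 difference 0.74, adjusted p = 0.0335). Slc40a1 did not pass without IM replicate 1, 2 or 3 or injIM replicate 1, 2 or 3 (adjusted p from 0.0524 to 0.135). Slc40a1 did not pass with a pseudocount of 10 (adjusted p = 0.0761) or with a pseudocount of 30 (adjusted p = 0.0567). The groups of both Spic and Slc40a1 were apart. The prostaglandin dehydrogenase Hpgd (log2 difference -0.87, adjusted p = 0.0151), transferrin Trf (log2 difference -0.59, adjusted p = 0.0105) and Cd163 fell. Hpgd counts here as a listed member but is no gene of iron or haem handling. Trf did not pass in limma on the 6 interstitial libraries alone (adjusted p = 0.0511). Hpgd did not pass without IM replicate 1 or 3 or injIM replicate 2 (adjusted p from 0.082 to 0.114), and Trf not without IM replicate 3 or injIM replicate 2 (adjusted p from 0.0664 to 0.0867). Haem oxygenase Hmox1 measured 171979 ± 106167 in IM and 140991 ± 9458 in injIM (adjusted p = 0.954) and ferritin heavy chain Fth1 272882 ± 39178 in IM and 269698 ± 50244 in injIM (adjusted p = 0.953).

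Genes that organize the membrane or bind matrix were called in both directions. Of 24 tested genes of caveolae, tetraspanins and integrins, 8 rose and 3 fell (median 0.14). Cav1, the coat protein of caveolae, measured 272, 524 and 285 in IM and 5009, 6480.4 and 3484 in injIM (chromosome 6, 17306335 to 17341328). The means differed 13.9-fold and every injIM library was far above the highest IM library (log2 difference 3.47, SE 0.30, adjusted p = 7.24e-07). Its partner Cav2 rose from 901 ± 107 to 2062 ± 272 (log2 difference 1.11, adjusted p = 0.0217), while Cavin1, which coats caveolae from the cytosol, fell from 707 ± 269 to 295 ± 98.5 (log2 difference -1.02, adjusted p = 0.0111). Cavin1 did not pass without IM replicate 3 (adjusted p = 0.103). Cavin1 did not pass with a pseudocount of 10 (adjusted p = 0.102). Cd81, a tetraspanin that organizes membrane receptors, measured 9993, 9276 and 10309 in IM and 3219, 2684 and 1945 in injIM (chromosome 7, 143052750 to 143067930) and the means differed 3.77-fold (log2 difference -1.90, SE 0.14, adjusted p = 1.23e-07).

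The alpha and beta subunits of integrin alpha-v beta-5, which binds vitronectin, both rose. Itgb5 measured 646, 1021 and 761 in IM and 2217, 2885 and 2419 in injIM (log2 difference 1.53, SE 0.16, adjusted p = 6.33e-06) and Itgav 1516, 1599 and 2148 in IM and 3794, 4881 and 3334 in injIM (log2 difference 1.14, SE 0.17, adjusted p = 0.000204), both without overlap. Itgb7 (log2 difference 1.47, adjusted p = 0.000206), the laminin-binding subunit Itga6 (log2 difference 1.56, adjusted p = 0.00496), the complement receptor subunit Itgam (log2 difference 0.69, adjusted p = 0.0233) and Itgax rose as well. Emp1 fell (log2 difference -0.53, adjusted p = 0.0372). Itgam and Emp1 did not pass in limma on the 6 interstitial libraries alone (adjusted p = 0.0597 and 0.15). Itgam did not pass without IM replicate 1 or 3 or injIM replicate 1 or 2 (adjusted p from 0.0809 to 0.139), and Emp1 not without IM replicate 1 or 3 or injIM replicate 2 or 3 (adjusted p from 0.112 to 0.204). Itga6 did not pass in edgeR on the 6 interstitial libraries (adjusted p = 0.218) or in DESeq2 on the 6 interstitial libraries (adjusted p = 0.16). Itgb1 measured 14148 ± 892 in IM and 14364 ± 1777 in injIM (adjusted p = 0.964), Itga5 17230.3 ± 1737 in IM and 13759 ± 3386 in injIM (adjusted p = 0.218) and Cd9 3089 ± 305 in IM and 3582 ± 814 in injIM (adjusted p = 0.475).

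Cytoskeletal genes moved in both directions, 4 higher and 3 lower of 32 tested (median -0.14). The non-muscle actin Actg1 measured 17545, 21583 and 19049.6 in IM and 12147, 11794 and 11759 in injIM (log2 difference -0.69, SE 0.10, adjusted p = 0.000234), and tropomyosin Tpm4 measured 12604, 14106 and 13014 in IM and 8369, 8025 and 7682 in injIM (log2 difference -0.71, SE 0.09, adjusted p = 6.14e-05). Both were lower in every punched library than in any unpunched library. Tpm1, another tropomyosin, rose from 1136 ± 204 to 2035 ± 484 (log2 difference 0.78, adjusted p = 0.00381), as did the membrane linker Ezr (log2 difference 0.74, adjusted p = 0.0015), Coro1a (log2 difference 0.75, adjusted p = 0.0121) and Myo1f (log2 difference 0.56, adjusted p = 0.0197), while the small GTPase Rhoc fell (log2 difference -0.89, adjusted p = 0.00381). Coro1a and Myo1f did not pass in limma on the 6 interstitial libraries alone (adjusted p = 0.0561 and 0.0502). Coro1a did not pass without IM replicate 1 or 3 or injIM replicate 1 (adjusted p from 0.0544 to 0.0924), and Myo1f not without IM replicate 1 or 3 or injIM replicate 1 or 2 (adjusted p from 0.0825 to 0.126). Actb measured 203222 ± 41376 in IM and 164523 ± 1344 in injIM (adjusted p = 0.171).

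Receptor genes moved in both directions. Of 39 tested G protein-coupled and neural receptor genes, 5 rose and 6 fell (median -0.21). Sema4d, a semaphorin that binds plexins, measured 156, 753 and 169 in IM and 1911, 2520.3 and 2944 in injIM (log2 difference 2.70, SE 0.31, adjusted p = 1.73e-05), and Plxna1, a semaphorin receptor, measured 1802, 1956 and 1542 in IM and 3453, 4277 and 3335 in injIM (log2 difference 1.02, SE 0.15, adjusted p = 0.000217). IM replicate 2 was the highest unpunched library of both. Sema4d did not pass in edgeR on the 6 interstitial libraries (adjusted p = 0.0898). The chemokine receptors Ccr1 (log2 difference 0.75, adjusted p = 0.000204) and Cxcr4 (log2 difference 0.85, adjusted p = 0.00864) rose. Cxcr4 did not pass without injIM replicate 1 (adjusted p = 0.0918). Cxcr4 did not pass in edgeR on the 6 interstitial libraries (adjusted p = 0.065). Ccr2, the receptor of CCL2, measured 342 ± 227 in IM and 719 ± 229 in injIM (adjusted p = 0.0761).

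Ptger4, the EP4 receptor of prostaglandin E2, measured 1732, 2325 and 1534 in IM and 603, 804 and 372 in injIM (log2 difference -1.53, SE 0.23, adjusted p = 0.000212). P2ry6, a receptor of UDP, measured 5490.4, 5131 and 5887 in IM and 3087, 2997 and 2719.7 in injIM (log2 difference -0.88, SE 0.11, adjusted p = 4.18e-05). The groups did not overlap for either gene. P2rx7 (log2 difference -0.84, adjusted p = 0.0126), P2ry13 (log2 difference -0.99, adjusted p = 0.0233), the oxysterol receptor Gpr183 (log2 difference -0.87, adjusted p = 0.00446) and Ccr7 (log2 difference -0.86, adjusted p = 0.0484) fell. Ccr7 did not pass in limma on the 6 interstitial libraries alone (adjusted p = 0.133). P2ry13 did not pass without IM replicate 1 or 3 or injIM replicate 1 or 3 (adjusted p from 0.0648 to 0.121), and Ccr7 not without IM replicate 1 or 3 or injIM replicate 2 (adjusted p from 0.174 to 0.295). P2ry13 did not pass with a pseudocount of 10 (adjusted p = 0.0544) or in edgeR on the 6 interstitial libraries (adjusted p = 0.0539). The endothelin receptor Ednrb measured 8821 ± 1665 in IM and 12113 ± 3018 in injIM (adjusted p = 0.289).

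In the TGF-beta pathway, which the title of the series names, 3 of 25 tested genes rose and none fell (median -0.12). Bhlhe40, a transcription factor, measured 2569, 3130.1 and 2368 in IM and 6972, 6866 and 8011 in injIM (log2 difference 1.41, SE 0.13, adjusted p = 1.95e-06), and Smad6, an inhibitor of the BMP branch, measured 35.5, 46 and 86.4 in IM and 254, 437 and 186 in injIM (log2 difference 1.29, SE 0.25, adjusted p = 0.00208). The integrin subunit Itgav, which helps to activate latent TGF-beta, is given above. The groups were apart for all 3 genes. Tgfbr1 measured 2289 ± 343 in IM and 3579 ± 925 in injIM (adjusted p = 0.137), Tgfbr2 6761 ± 1305 in IM and 4976 ± 1558 in injIM (adjusted p = 0.112) and Smad7 322 ± 137 in IM and 476 ± 23.9 in injIM (adjusted p = 0.187).

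Among 30 tested lineage factors and growth factor receptors, 3 rose and 2 fell (median -0.10). These were 10% and 6.67%, against 4.15% and 4.03% of all tested genes. Csf2rb, the shared receptor subunit for GM-CSF, interleukin-3 and interleukin-5, measured 8875, 9545 and 6971 in IM and 15910.3, 13988 and 16602 in injIM (log2 difference 0.87, SE 0.13, adjusted p = 0.000174), without overlap. Id3 rose (log2 difference 0.86, adjusted p = 0.00347), and Cebpd (log2 difference -0.77, adjusted p = 0.0108) and Mef2c (log2 difference -0.68, adjusted p = 0.00919) fell. Cebpd did not pass without injIM replicate 1 (adjusted p = 0.0519), and Mef2c not without IM replicate 3 or injIM replicate 1 (adjusted p from 0.0545 to 0.0614). Csf1r, the receptor on which macrophages depend, measured 76894 ± 2676 in IM and 64337 ± 11458 in injIM (adjusted p = 0.176) and Id2 32274 ± 4155 in IM and 22453 ± 4189 in injIM (adjusted p = 0.05). Of 20 alternative activation genes, 3 rose, namely Arg1, Tgm2 and Clec7a, and 4 fell, namely Mrc1, Cd163, Ccl24 and Mgl2 (median -0.21). Arg1, which degrades arginine, measured 21.1, 95 and 35.4 in IM and 361, 171 and 549 in injIM (log2 difference 1.55, SE 0.28, adjusted p = 0.00128). Mgl2, a galactose-type lectin, fell from 261 ± 42.8 to 104 ± 43.7 (log2 difference -0.84, adjusted p = 0.00592). Retnla measured 2059.8, 1407 and 7433 in IM and 1555, 733 and 244 in injIM (adjusted p = 0.0758).

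Monocyte genes were called in both directions, with 2 higher and 2 lower of 16 tested members of a list of 27 (median 0.14). Itgal, an integrin subunit of blood leukocytes, measured 144, 209 and 179.8 in IM and 479, 511 and 409 in injIM (log2 difference 1.03, adjusted p = 0.0151), and Thbs1 was the other risen member. Lyz1 fell (log2 difference -1.15, adjusted p = 0.00976) beside Nr4a1, and reads of Lyz1 may be shared with its close copy Lyz2, which measured 128169 ± 18558 in IM and 124295 ± 23166 in injIM. Itgal did not pass without IM replicate 1 or 3 or injIM replicate 1 or 2 (adjusted p from 0.0625 to 0.0878), and Lyz1 not without IM replicate 1 or 3 (adjusted p from 0.0568 to 0.0604). Ly6c2, the marker of classical monocytes, measured 54.1, 786 and 19 in IM and 118, 42.9 and 328 in injIM (adjusted p = 0.959). Of 28 tested interferon response genes, 2 rose, Oas3 among them (log2 difference 0.98, adjusted p = 0.0402), and 1 fell, Oasl1 (log2 difference -0.89, adjusted p = 0.0291), with a median of 0.08. These shares, 7.14% and 3.57%, were near the 4.15% and 4.03% of all tested genes. Oas3 and Oasl1 did not pass in limma on the 6 interstitial libraries alone (adjusted p = 0.0547 and 0.0633). Oas3 did not pass without IM replicate 1 or 3 or injIM replicate 1 or 3 (adjusted p from 0.082 to 0.23), and Oasl1 not without IM replicate 1 or 3 or injIM replicate 2 (adjusted p from 0.121 to 0.191).

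Complement and phagocytic receptor genes moved both ways, 5 higher and 7 lower of 29 tested (median -0.19). C5ar1, the receptor of the anaphylatoxin C5a, measured 44063, 47729.5 and 43596 in IM and 23409, 24717 and 18717 in injIM (log2 difference -1.02, SE 0.11, adjusted p = 4.22e-06). C1qc, a chain of the first complement component, measured 54146, 55583 and 57513 in IM and 38285, 36538 and 39107 in injIM (log2 difference -0.55, SE 0.10, adjusted p = 0.00125). The groups were apart for both genes. C1qa fell by less (log2 difference -0.44, adjusted p = 0.0207), and C1qb measured 63845 ± 3140.2 in IM and 54630.4 ± 6163 in injIM (adjusted p = 0.254). The bridging protein Pros1 (log2 difference -1.07, adjusted p = 0.00208) fell beside Gas6 and Timd4, which also act in the uptake of dying cells. The uptake receptors Mertk (865 ± 307 in IM and 988 ± 110.3 in injIM) and Axl (1226 ± 377 in IM and 1019 ± 99.5 in injIM) did not pass (adjusted p = 0.76 and 0.525).

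C3 (log2 difference 1.08, adjusted p = 0.0104), the phosphatidylserine receptor Cd300lf (log2 difference 0.92, adjusted p = 0.00296) and the lipoprotein receptor Scarb1 (log2 difference 1.11, adjusted p = 0.00024) rose beside Itgam and Itgax. C1qa and C3 were among the members that did not pass in limma on the 6 interstitial libraries alone (adjusted p = 0.105 and 0.0625). C1qa did not pass without IM replicate 3 or injIM replicate 1 or 2 (adjusted p from 0.0668 to 0.134), and C3 not without IM replicate 1 or 3 or injIM replicate 1 (adjusted p from 0.0627 to 0.0797). Among 33 tested pattern recognition receptors and lectins, 3 rose and 4 fell (median 0.08). Clec12a, an inhibitory receptor for uric acid crystals, measured 461, 610.1 and 431 in IM and 977, 1244 and 1862 in injIM (log2 difference 1.25, SE 0.19, adjusted p = 0.000325). Clec7a (log2 difference 0.53, adjusted p = 0.0246) and Clec4e (log2 difference 0.44, adjusted p = 0.0468) rose, and Siglech (log2 difference -1.55, adjusted p = 0.00337), Cd33 (log2 difference -0.55, adjusted p = 0.0397), Clec4n (log2 difference -0.41, adjusted p = 0.0151) and Cd14 (log2 difference -0.40, adjusted p = 0.0333) fell. Clec7a, Clec4e, Cd33, Clec4n and Cd14 did not pass in limma on the 6 interstitial libraries alone (adjusted p = 0.086, 0.133, 0.145, 0.11 and 0.159). Clec7a did not pass without IM replicate 3 or injIM replicate 1 or 2 (adjusted p from 0.0889 to 0.176). The same held for Clec4e without IM replicate 1 or 3 or injIM replicate 1 or 2 (adjusted p from 0.0813 to 0.236), Cd33 without IM replicate 1 or 3 or injIM replicate 2 or 3 (adjusted p from 0.0922 to 0.203), Clec4n without IM replicate 1 or injIM replicate 1 or 2 (adjusted p from 0.0625 to 0.0961) and Cd14 without IM replicate 1, 2 or 3 or injIM replicate 1 or 2 (adjusted p from 0.0501 to 0.166). Siglech did not pass in edgeR on the 6 interstitial libraries (adjusted p = 0.164) or in DESeq2 on the 6 interstitial libraries (adjusted p = 0.127). None of the tested toll-like receptors passed. Tlr2 measured 31748 ± 5798 in IM and 24488 ± 6853 in injIM (adjusted p = 0.198) and Tlr4 554 ± 99 in IM and 970.4 ± 515 in injIM (adjusted p = 0.257).

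Cell cycle genes were not called in limma, with 0 of 31 tested and 3 at an unadjusted p under 0.05 (median 0.23). On the 6 interstitial libraries edgeR and DESeq2 each called 1 lower, and limma called 1 higher without IM replicate 2. Mki67, a marker of cycling cells, measured 1706, 1871 and 2324 in IM and 1965, 2068 and 843 in injIM (adjusted p = 0.48), and Top2a measured 119, 557 and 341 in IM and 215, 465 and 478 in injIM (adjusted p = 0.788). The libraries of both groups overlapped for both genes.

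Several of the largest rises belong to none of these lists. Sgk1, a kinase induced by glucocorticoids and salt, had the lowest adjusted p of the 20 largest rises and measured 1891, 1784 and 1231 in IM and 7359, 6988 and 6599 in injIM (log2 difference 2.05, SE 0.14, adjusted p = 7.01e-08). Cyp2s1, a cytochrome P450, measured 21.1, 0 and 29.4 in IM and 722, 1305 and 1593 in injIM (log2 difference 3.43, SE 0.29, adjusted p = 6.06e-07), and Tmem26, a membrane protein, measured 8.45, 63.6 and 4.32 in IM and 336, 449 and 408 in injIM (log2 difference 2.01, SE 0.22, adjusted p = 9.2e-06). Both were far lower in each unpunched than in any punched library. Met, the receptor of hepatocyte growth factor, rose from 260.1 ± 159.9 to 1318 ± 406 (log2 difference 2.04, SE 0.30, adjusted p = 0.00024). Its ligand Hgf measured 176 ± 52.5 in IM and 279 ± 42.1 in injIM (adjusted p = 0.189). Lhfpl2 (log2 difference 2.03, adjusted p = 7.24e-07), the lipid phosphatase Plpp3 (log2 difference 1.98, adjusted p = 1.35e-06) and the sodium-proton exchanger Slc9b2 (log2 difference 2.13, adjusted p = 0.000705) rose as well. Among the falls were the water channel Aqp1 (log2 difference -1.64, adjusted p = 0.00194), the phospholipase Pla2g2d (log2 difference -1.63, adjusted p = 0.00018), the adhesion receptor Selp (log2 difference -1.63, adjusted p = 0.00384), Pxdc1 (log2 difference -1.62, adjusted p = 1.18e-05), Rtn1 (log2 difference -1.61, adjusted p = 7.48e-05), Serpinb1a (log2 difference -1.61, adjusted p = 0.000234) and Sema6a (log2 difference -1.64, adjusted p = 0.00675). Sema6a did not pass in limma on the 6 interstitial libraries alone (adjusted p = 0.113). Selp did not pass in edgeR on the 6 interstitial libraries (adjusted p = 0.147).

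The 10 called genes with the highest mean over the 6 libraries were Apoe and Thbs1, which rose, and Ccl2, Cd14, C1qc, Zfp36, Lmna, Plek, Selenop and Dab2, which fell. Plek, a substrate of protein kinase C, measured 86429.7, 75141 and 92847 in IM and 66480.5, 57463 and 39666 in injIM (log2 difference -0.66, SE 0.14, adjusted p = 0.00409). Dab2, an endocytic adaptor, fell from 55655 ± 6298 to 36862 ± 10582 (log2 difference -0.63, adjusted p = 0.0126), and the nuclear lamina gene Lmna fell from 97258 ± 7103 to 78211 ± 3023 (log2 difference -0.31, adjusted p = 0.0291). Plek, Dab2 and Lmna did not pass in limma on the 6 interstitial libraries alone (adjusted p = 0.0633, 0.0939 and 0.216). Lmna did not pass without IM replicate 1 or 2 or injIM replicate 1 (adjusted p from 0.0558 to 0.151).

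Markers of other skin cells were measured beside these differences. Mast cell markers summed to 572 to 748 CPM in IM and 261 to 275 in injIM, and 7 of the 8 tested markers fell. Gata2, a transcription factor of mast cells, measured 512, 305 and 307 in IM and 91.2, 75.3 and 44 in injIM (log2 difference -1.46, adjusted p = 0.000225), and the proteases Mcpt4 and Cpa3 (log2 difference -1.36, adjusted p = 0.00281, and log2 difference -1.22, adjusted p = 0.00866) fell with it, as did Hdc (log2 difference -1.33, adjusted p = 0.0115). Cpa3 did not pass without IM replicate 3 (adjusted p = 0.0604), and Hdc not without IM replicate 1 or injIM replicate 2 (adjusted p from 0.0684 to 0.0769). Hdc did not pass with a pseudocount of 10 (adjusted p = 0.0502). Dendritic cell markers summed to 288 to 642 CPM in IM and 134 to 286 CPM in injIM, and Cd209a made up 75.6% of the sum. Of 11 tested, 3 were called lower and 1 higher. Zbtb46, a transcription factor of dendritic cells, measured 208, 403 and 418 in IM and 168, 125 and 96.4 in injIM (log2 difference -0.92, adjusted p = 0.0424), while Cd24a rose (log2 difference 1.49, adjusted p = 0.000833). Zbtb46 did not pass without IM replicate 2 or 3 or injIM replicate 1, 2 or 3 (adjusted p from 0.082 to 0.205). Zbtb46 did not pass with a pseudocount of 10 (adjusted p = 0.0721), with a pseudocount of 30 (adjusted p = 0.052) or in voom (adjusted p = 0.11). Langerhans cell markers summed to 111 to 142 CPM in IM and 71.2 to 84.5 in injIM, and Mfge8 made up 73.6% of the sum. Of 3 tested, 1 was called lower, Cd207, langerin (log2 difference -1.30, adjusted p = 0.0263). In CPM, Cd207 measured 54.0, 37.0 and 13.2 in IM and 5.35, 8.92 and 16.5 in injIM, with overlap. Cd207 did not pass in limma on the 6 interstitial libraries alone (adjusted p = 0.067). Cd207 did not pass without IM replicate 1 or 2 or injIM replicate 1 or 2 (adjusted p from 0.0656 to 0.188).

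T and NK cell markers summed to 383 to 458 CPM in IM and 342 to 459 in injIM. The sum was made up of Cd4, which fell from 6184 ± 473 to 2963 ± 784 (log2 difference -1.06, adjusted p = 0.00223), and Il7r, which rose from 1304 ± 249.6 to 3462 ± 555 (log2 difference 1.35, adjusted p = 4.22e-06), both of which macrophages can express. Cd3e stayed at or below 3.32 CPM and Cd3g at or below 2.05 CPM, and Trac, Gzma and Ncr1 had no read. As Aif1 had none either, these zeros may mean genes that were not counted. Fibroblast markers summed to 307 to 509 CPM in IM and to 448, 325 and 1154 CPM in injIM replicates 1, 2 and 3. Col1a1 measured 56.9, 52.5 and 28.1 CPM in IM and 59.1, 17.9 and 244 in injIM, so injIM replicate 3 stood above the others. Keratinocyte markers were highest in IM replicate 2 at 194 CPM, against 13.5 to 87.3 CPM in the other 5 libraries. The B cell, melanocyte, Schwann cell, endothelial cell, and smooth muscle and chondrocyte lists each summed to at most 40.9 CPM in every library. Eosinophil and basophil markers summed to 3.91 to 7.47 CPM in IM and 9.90 to 21.4 CPM in injIM, without overlap, and Ccr3 made up 88.0% of the sum. The other markers each stayed at or below 1.58 CPM and moved both ways. Siglecf had a mean of 0.959 CPM in IM and 0.152 in injIM, and Prg2 0.224 in IM and 0.688 in injIM. The tested marker Ccr3, an eotaxin receptor, rose (log2 difference 0.91, adjusted p = 0.0171). Ccr3 did not pass in limma on the 6 interstitial libraries alone (adjusted p = 0.0513). Ccr3 did not pass without IM replicate 1 or injIM replicate 1 or 3 (adjusted p from 0.0566 to 0.107). The part of these cells in the differences above was not tested.

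**Figure D4:**
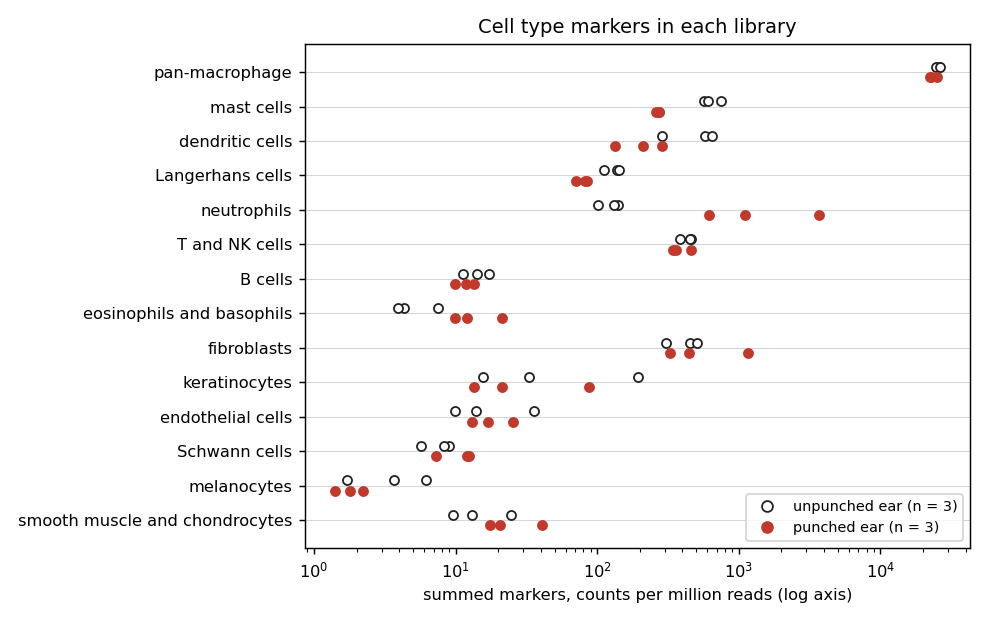
Summed CPM of each marker list by library on a log axis, open points for the unpunched and filled points for the punched ear. Mast cell sums of 261 to 275 CPM in injIM lie below the 572 to 748 CPM of IM, and neutrophil sums reach 3663 CPM through Mmp9.

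The response of interstitial macrophages was set beside that of the nerve-associated gate by a test of the difference itself, the change from IM to injIM minus the change from sNAM to injsNAM. In limma with the group weights this called 0 genes, 444 had an unadjusted p under 0.05, while edgeR on all libraries called 26 and DESeq2 228. The nerve-associated libraries varied more between replicates, with correlations that did not exceed 0.776 in sNAM and 0.772 in injsNAM, so the test had less precision than the one above. Plpp3 measured 147 ± 182 in sNAM and 54.2 ± 85.7 in injsNAM, Bhlhe40 6084 ± 2188 in sNAM and 4532 ± 1227 in injsNAM and Il7r 7587 ± 1703 in sNAM and 4992 ± 569 in injsNAM. These genes had unadjusted p-values of the difference of 0.0024, 0.00308 and 0.0025, each with an adjusted p of 0.742. They were picked from the named genes after their values were seen. Ccl2 measured 31661 ± 11784 in sNAM and 15973 ± 5809 in injsNAM and Mmp9 25.4 ± 39 in sNAM and 992 ± 1464 in injsNAM, and the difference of responses had an adjusted p of 0.974 for each.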

How the data were processed

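RNA-seq was run on 15 libraries of sorted mouse ear skin macrophages, of which 6 were compared here. Per the labels' protocols, 250 pg of RNA were reverse transcribed with the SMARTer kit v4, amplified over 13 PCR cycles and made into Nextera XT libraries. Without molecular identifiers, reads are not independent molecules. Per the submitters' processing notes, the tools were STAR 2.7.2b on mm10, cutadapt, bcl2fastq 2.18 and DESeq2 1.24.0 in R 3.6.1. The sources used here name no read counter, annotation or strand setting, so reads of overlapping or antisense genes cannot be told apart.

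The deposited table holds a normalized signal for 42454 entries, counts the authors scaled by a single factor for each library. In every library 100% of the values above 0 were whole multiples of the value of 1 read within 0.01, so whole reads and depth were recovered. Symbols listed more than once cover 4082 entries, 118 of them tested, and were not named as largest changes. In all, 36134 symbols matched RefSeq on GRCm38, whose coordinates are given.

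The test was limma 3.58.1 (limma-trend, robust empirical Bayes, R 4.3.3) on log2(value + 100), run on the 8656 genes whose mean over the 15 libraries reached 100, with a mean and an array weight for each group (IM 3.43, injIM 3.21, sNAM 0.175, injsNAM 0.311, recsNAM 1.67). P-values were adjusted by Benjamini-Hochberg over all tested genes, and 0.05 was the threshold of a call. Log2 differences on this scale understate the change of low genes, and folds divide 1 group mean by another. Simulated data served to test the script. The planned edgeR test on counts became an alternative (edgeR 4.0.16, and DESeq2 1.42.0, on the recovered reads) because the deposited values are normalized. The named genes were the 20 largest rises and falls among called genes whose groups did not overlap, the 4 largest called changes in each direction of every list, the 10 called genes with the highest mean, and Cx3cr1. Other list members were added for their role, after their values were seen. Some genes that these rules select are not reported here. The libraries, gene lists and tests were chosen with earlier results of these data known. Alternatives were other pseudocounts, filters, scalings, tools and sets of libraries, a replicate block, and leaving out each library.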

Additional observations from a re-analysis of the deposited data

How the results depend on the processing

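The 359 higher and 349 lower calls became 10 and 8 with 1 pooled spread for all libraries, 2 and 2 with edgeR on all libraries, also with the deposited factors, 31 and 33 with DESeq2 on all libraries, and 172 and 143 with no filter on low values. edgeR on the 6 interstitial libraries called 238 higher. Leaving out each library in turn gave 197 to 457 higher and 202 to 370 lower. Pseudocounts of 10 and 30, TMM factors, voom, DESeq2 and limma on the 6 interstitial libraries kept both counts within 1.5 times, and all 151 named genes tested kept their sign wherever they were tested. Outside the fits with 1 spread over all libraries and the fit without a filter, 79 of these 151 kept their call in each of the other 16 alternatives and 72 lost it in at least 1. Each of these 151 that lost its call in limma on the 6 interstitial libraries lost it in edgeR on them too, except Bcl2a1b. Of the largest changes, edgeR on the 6 interstitial libraries did not call Spp1, Acp5, Sema4d, Inhba, Thbs1, Col18a1, Cxcl13, Cd209d, Sema6a, Selp and Siglech. The difference of responses between gates went from 0 genes to 4 with a pooled spread, 6 with no filter, 26 and 31 with edgeR (its own and the deposited factors) and 228 with DESeq2. The cause of these shifts was not tested.

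The replicate numbers were not treated as pairs: the deviations of same-numbered IM and injIM libraries correlated at 0.102, 0.227 and 0.041, and not every library correlated best with its own number. With a replicate block limma called 471 higher and 457 lower on all libraries, 324 and 283 on the 6 interstitial libraries, where 39 of the 151 named genes were not called (Cd209b, Ccl24, Aqp1, Tpm1, Selp, Timd4, Cavin1 and Zbtb46 among them, which passed there without the block), and 0 genes for the difference of responses between gates.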

Other observations

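The 4 gene groups below were put together after the values were seen, so they carry no test as groups. For the same reason none of their counts or medians can be set against those of all genes. Genes that osteoclasts use to resorb bone were higher in part: of 12 tested genes of 17 listed, 7 rose and none fell, with a median log2 difference of 0.86. Acp5, Mmp9 and Slc9b2 were known as large rises when the list was made, so this count and median cannot be set against those of all genes. Nfatc1, the transcription factor that drives osteoclast formation, measured 1150.3, 1546 and 1105 in IM and 2913, 5007 and 7178 in injIM (log2 difference 1.83, SE 0.26, adjusted p = 0.000144). Tcirg1, a subunit of the proton pump, rose from 4018 ± 325 to 7354 ± 1592 (log2 difference 0.84, adjusted p = 0.000399), and the fusion gene Ocstamp measured 26.2, 162 and 38 in IM and 169, 282 and 1541 in injIM (log2 difference 1.74, adjusted p = 0.0291). Acp5, Mmp9, Slc9b2 and Ostm1 were the other risen members. In injIM replicate 3 several of these genes stood far above the other libraries, with Ctsk, cathepsin K, at 13007, 11770.2 and 14886 in IM and 9471, 12482 and 32186 in injIM (adjusted p = 0.81). Fibroblast markers were also highest in that library, at 1154 CPM. Tnfrsf11a, the receptor RANK, measured 3274 ± 472 in IM and 2952 ± 594 in injIM (adjusted p = 0.732), Calcr was near 0 in all 6 libraries and Siglec15 had no read. Whether a few cells of another kind in 1 library carry these genes was not tested.

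Genes of ribosome assembly were lower in part, with 10 of 24 tested fallen and none risen (median -0.43). Gtpbp4 fell from 2435 ± 288 to 1436 ± 144 (log2 difference -0.72, adjusted p = 0.00278), Nop56 from 1503 ± 73.1 to 857 ± 203 (log2 difference -0.76, adjusted p = 0.00705) and Utp4 from 1895 ± 234 to 1045 ± 149 (log2 difference -0.80, adjusted p = 0.0165), whereas the abundant nucleolar genes Ncl (11870.3 ± 1791 in IM and 10735 ± 897 in injIM) and Npm1 (1749.7 ± 150.2 in IM and 1717 ± 207 in injIM) did not pass (adjusted p = 0.638 and 0.946). Myc, which drives such genes in many cells, is among the fallen genes of the report, and its part in these falls was not tested.

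Genes of eicosanoid synthesis and receptors moved in both directions, 2 higher and 5 lower of 20 tested. Ptges, which makes prostaglandin E2, measured 86.1, 289 and 55.3 in IM and 730.2, 681 and 745 in injIM (log2 difference 1.87, SE 0.29, adjusted p = 0.000317), while Hpgd, which degrades it, fell from 2088 ± 356 to 1112 ± 297 (log2 difference -0.87, adjusted p = 0.0151) and its receptor gene Ptger4 fell as given above. As given above, Hpgd lost its call without some of the libraries. The synthase genes Ptges2 (255 ± 66.8 in IM and 223 ± 92.2 in injIM, adjusted p = 0.772) and Ptges3 (2612 ± 369 in IM and 1861 ± 229 in injIM, adjusted p = 0.0519) did not pass. Nor did the receptor Ptger2 (62.6 ± 26.0 in IM and 129 ± 47.6 in injIM, adjusted p = 0.333). Hpgds, the prostaglandin D2 synthase, fell from 4189.8 ± 888 to 2323 ± 171 (log2 difference -0.81, adjusted p = 0.00223). Mast cells, whose markers also fell, express Hpgds, and their part in its fall was not tested. Alox5, the leukotriene enzyme, fell from 2252 ± 265 to 1232 ± 435 (log2 difference -0.87, adjusted p = 0.0106).

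Genes of coagulation and the thrombin response had 5 higher and 4 lower members of 14 tested. The higher ones include F11r, listed here although it is no clotting factor, and Thbs1, which did not pass in every fit, as given above. F7 rose from 60.1 ± 41.9 to 282 ± 18.1 (log2 difference 1.28, adjusted p = 0.000516), F10 from 283 ± 114 to 623 ± 124 (log2 difference 0.95, adjusted p = 0.0168) and the thrombin receptor F2r from 67.5 ± 28.1 to 268 ± 109.5 (log2 difference 1.11, adjusted p = 0.0146). Thrombomodulin Thbd, which turns thrombin towards anticoagulation, measured 8465, 12214 and 6543 in IM and 3156, 2884 and 3344 in injIM (log2 difference -1.46, SE 0.20, adjusted p = 7.59e-05), without overlap, and Pros1 fell beside it.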
